A study of Rattus norvegicus with 30 samples.

Results

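The question addressed was whether added isoflavones changed liver gene expression differently on a soy protein diet than on a casein diet. It was read from the contrast (SI minus S) minus (CI minus C), called the interaction here, over 20 of the 30 arrays of the study. A positive interaction means that the isoflavone difference was more positive on soy protein than on casein. The same number also compares the soy difference with isoflavone (SI minus CI) against that without it (S minus C). SI was a soy protein diet with an added mixture of isoflavones, S was soy protein alone, CI was casein with the mixture, and C was casein alone. Each of these groups held 5 male Sprague-Dawley rats, and every diet supplied 200 g of protein per kg. The rats arrived at 4 weeks of age, were adapted for 5 days on a commercial diet and then fed for 14 days. The isoflavone dose of SI and CI was set to that of a tofu diet (T20), which was 1 of the 2 tofu diets left out of the contrast. The labels do not say how much isoflavone the soy protein of S carried, so S is described only as the diet without the added mixture.

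Isoflavones such as genistein and daidzein are soy polyphenols that bind oestrogen receptors weakly. After absorption they are glucuronidated and sulphated in intestine and liver and leave the liver through bile and blood. The liver is also where sterol regulatory element binding proteins set the output of cholesterol and fatty acid synthesis, and dietary protein is known to alter both pathways in rats.

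RNA of each liver was hybridised to 1 single-colour Affymetrix array, with 1 animal per array, described in the labels as biological replicates. Values are log2 of the deposited intensity, a difference of 1 is a factor of 2, and errors are SE unless stated. The median intensity per array lay between 216.9 and 254.7, and the correlation between any 2 of the 20 arrays between 0.943 and 0.972. As a sign of RNA integrity, GAPDH probe sets gave 3'/5' ratios of 1.01 to 1.25 and beta-actin probe sets 1.84 to 2.89. The highest beta-actin ratio, 2.89, was that of CI replicate 5, against 1.84 to 2.19 in the other 4 CI livers. Those 4 lay below every C liver, where the ratio was 2.21 to 2.65. It was 2.31 to 2.78 in S livers and 1.92 to 2.83 in SI livers. The part of this ratio in the CI minus C results, and in results that rest on CI replicate 5, was not tested. The 9 hepatocyte markers tested had list means between 14.8 and 15.3 in every group. The arrays of CI spanned a narrower range of values, with an interquartile spread of 2.33 to 2.49 log2 units, against 2.45 to 2.64 in C. The labels list identical normalization parameters for C replicate 3 and CI replicate 3, and several results are given without both. The number of arrays limits the precision.

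One probe set out of 18625 tested, 0.00537%, passed the interaction test at an adjusted p under 0.05. This probe set, 1396371_at, carries no gene name in the platform annotation. It read 6.15, 7.01, 6.20, 5.93 and 5.47 in SI livers, against 7.36, 8.25, 7.89, 7.98 and 7.69 in S livers. It read 8.25, 8.51, 8.39, 8.43 and 8.23 in CI livers, against 7.87, 6.86, 7.09, 6.40 and 8.07 in C livers. Every SI liver was thus below every S liver and every CI liver above every C liver. No other of the 18625 probe sets had both pairs separated in opposite directions. The choice by interaction favours such separation, so that count adds no support of its own. SI minus S was -1.68 ± 0.28 and CI minus C 1.11 ± 0.28. The interaction was -2.79 ± 0.40, with a 95% interval of -3.63 to -1.95 and an adjusted p of 0.018 in limma. In the T20 livers, which received the same isoflavone level, 1396371_at read 8.31, 8.16, 6.77, 7.14 and 6.86, with values inside the ranges of all 4 other diets, SI included.

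The call for 1396371_at was a narrow one. With each array left out in turn its adjusted p lay between 0.00288 and 0.0623, and the call was lost without any one of C replicates 2 and 3, CI replicates 3 and 4, S replicates 2, 3 and 4, or SI replicate 4. Without both C replicate 3 and CI replicate 3 the interaction was -2.74 with an adjusted p of 0.168. Its mean lay close to the intensity of 167.1, or 7.38 in log2, below which probe sets were not tested. A stricter filter removed it, leaving 0 calls. The group means of 6.15 in SI and 7.25 in C lay below that level, and those of 7.83 in S and 8.36 in CI above it. This probe set was thus tested because of the diets in which it read higher.

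**Figure D1:**
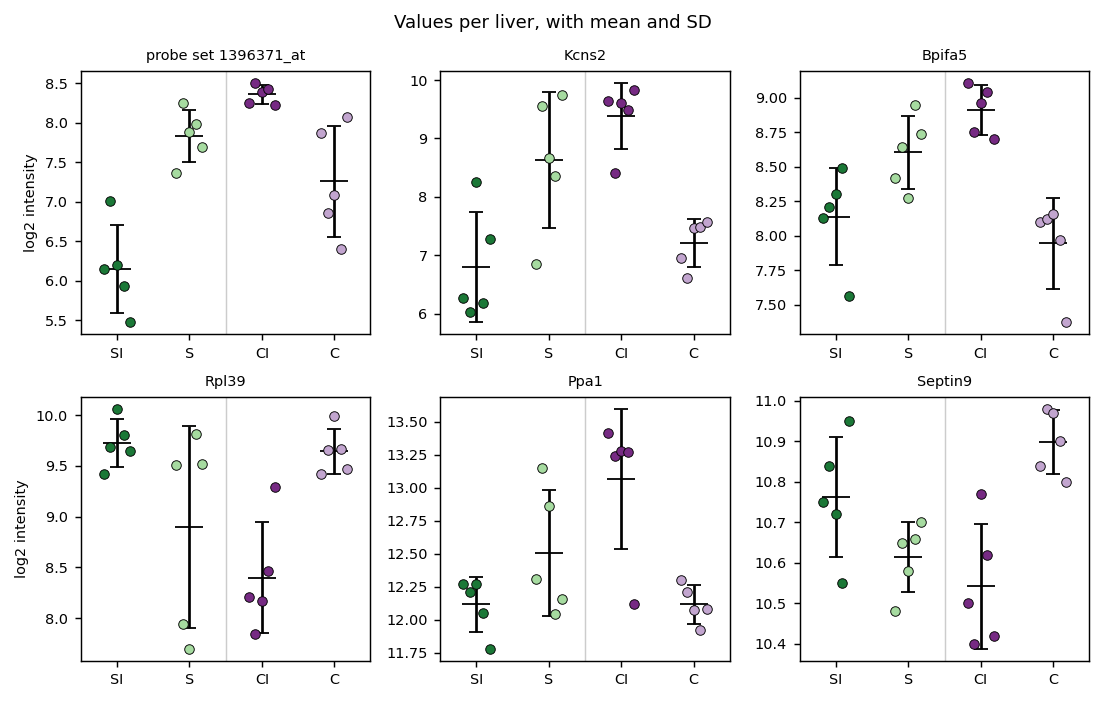
Log2 intensity per liver (vertical axis) of probe set 1396371_at and 5 genes of small p in the interaction, in SI (soy protein with isoflavone), S (soy protein), CI (casein with isoflavone) and C (casein). Points are single livers, the long tick is the mean and the bar the SD (n = 5 per group). For 1396371_at, Kcns2, Bpifa5 and Ppa1 the CI mean lies above C and the SI mean below S, and for Rpl39 and Septin9 the CI mean lies below C and the SI mean above S.

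Next in rank were Kcns2, a modulatory subunit of voltage-gated potassium channels, and Bpifa5, a member of the BPI-fold family of secreted proteins. Kcns2 read 6.26, 6.02, 8.25, 6.18 and 7.27 in SI livers, against 6.84, 9.55, 8.66, 8.35 and 9.75 in S livers. It read 9.64, 8.40, 9.60, 9.48 and 9.83 in CI livers, against 6.95, 6.61, 7.46, 7.48 and 7.56 in C livers. All CI livers exceeded all C livers, while SI and S overlapped. The interaction of Kcns2 was -4.01 ± 0.67 with an adjusted p of 0.0615, just outside the threshold.

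Bpifa5 read 8.13, 8.21, 8.30, 8.49 and 7.56 in SI livers, against 8.42, 8.64, 8.27, 8.95 and 8.74 in S livers. In CI livers it read 9.11, 8.75, 8.96, 9.04 and 8.70, against 8.10, 8.12, 8.16, 7.97 and 7.37 in C livers. Here too CI lay wholly above C and SI overlapped S. The interaction was -1.43 ± 0.24, with the same adjusted p of 0.0615. Both genes passed the threshold when all 30 arrays shared 1 estimate of the spread, where the adjusted p was 0.026 for Kcns2 and 0.04 for Bpifa5, and both passed with array weights and with the replicate block. Without both C replicate 3 and CI replicate 3 the adjusted p of each was 0.24. With single arrays left out the adjusted p in limma was 0.0037 to 0.176 for Kcns2. It was 0.0515 to 0.184 for Bpifa5, which passed on no single omission.

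At an unadjusted p under 0.05 the interaction held 1885 probe sets, 10.1% of those tested, where 931 would fall if nothing differed and probe sets were independent. Of these, 1059 were positive and 826 negative, a share of 56.2% positive. That share was 85.2% when every array was centred on its median, because this scaling moved the median interaction of all probe sets to 0.11, against 0.02 otherwise. Without both C replicate 3 and CI replicate 3 the interaction held 1324 probe sets at this level. The median size of the interaction over all probe sets was 0.162, and the median SE 0.179. SI minus S held 725 probe sets at that level, 3.89%, of which the positive ones were 1.75% and the negative ones 2.14% of all tested. CI minus C held 1770, 9.5%, split into 3.57% positive and 5.93% negative. No probe set passed an adjusted p under 0.05 in limma in either of these single comparisons. Without S replicate 3 the SI minus S count was 1267. Without C replicate 3 and CI replicate 3 the CI minus C count was 1119, and with median centring it was 2668.

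The isoflavone differences on soy protein and on casein ran in opposite directions more often than in the same one. Across all 18625 probe sets, 60.6% had opposite signs in SI minus S and CI minus C. The correlation of these differences across probe sets was -0.277 (Pearson) and -0.27 (Spearman). Both come from separate livers, so no array is shared between them, but probe sets on 1 array are not independent and no p is attached. Leaving out single arrays kept the Pearson value between -0.319 and -0.215. Among the 1885 probe sets above, 1831 had opposite signs, which the choice by interaction favours. CI minus C was the larger of the pair in 66.3% of them and in 55.9% of all probe sets. Probe sets with both single differences at an unadjusted p under 0.05 numbered 90 with opposite signs and 9 with the same sign.

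**Figure D2:**
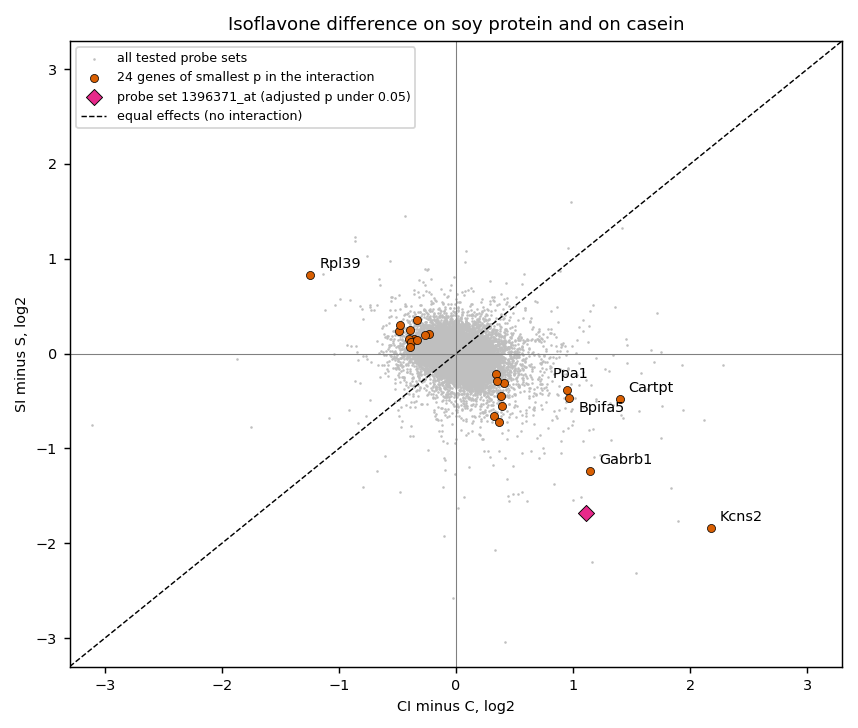
SI minus S (vertical axis, log2) against CI minus C (horizontal axis, log2) for 18625 tested probe sets in grey, with the 24 named genes of smallest p in the interaction in orange and probe set 1396371_at as a diamond. The dashed line marks equal isoflavone differences on both proteins. All 24 genes lie in the quadrants of opposite sign, as the choice by interaction favours.

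The 12 named genes of smallest p with a positive interaction had values from 0.43 to 2.07, with adjusted p-values up to 0.378, so none passed the test. In 10 of the 12, every CI liver was below every C liver, while in 0 of the 12 did the SI and S livers separate. Over all tested probe sets 1.31% had CI wholly below C. The 12 were chosen by the interaction, which includes CI minus C and so favours such separation, and that share is no baseline for them. Rpl39, a small protein of the large ribosomal subunit, had the largest value. It read 9.42, 9.69, 10.06, 9.80 and 9.65 in SI livers, against 9.51, 7.94, 7.70, 9.81 and 9.52 in S livers. In CI livers Rpl39 read 8.21, 7.85, 8.17, 8.47 and 9.29, against 9.42, 9.66, 9.99, 9.67 and 9.47 in C livers. The SI livers lay close together, S replicates 2 and 3 lay far below the other S livers, and every CI liver was below every C liver. The interaction of Rpl39 was 2.07 ± 0.48 with an adjusted p of 0.366.

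The other positive genes had smaller values. Tubb4b, a beta-tubulin, had an interaction of 0.72 ± 0.16. Septin9, a septin GTPase, had 0.51 ± 0.12, and its other probe set 0.44 ± 0.10. Hip1, an endocytic adaptor, had 0.65 ± 0.17. Its other 4 probe sets had smaller values of 0.34, 0.09, 0.09 and 0.07, none at an unadjusted p under 0.05. SI minus S was negative in all 4 of them, against 0.25 in the first. The membrane protein Emp2 had 0.79 ± 0.20. Mboat7, an acyltransferase that puts arachidonic acid into phosphatidylinositol, had 0.55 ± 0.13. Septin9 showed the common shape: it read 10.75, 10.84, 10.72, 10.55 and 10.95 in SI livers, against 10.48, 10.65, 10.58, 10.66 and 10.70 in S livers. Its CI livers read 10.50, 10.40, 10.77, 10.62 and 10.42, against 10.84, 10.98, 10.97, 10.90 and 10.80 in C livers, so that only the casein pair separated. The rest were Mocs1, an enzyme of molybdenum cofactor synthesis (0.43), the transcriptional kinase Cdk13 (0.46), the transcription factor Gtf2ird1 (0.46), C19h1orf198 (0.48), the p53-inducible Tp53i11 (0.51) and Fam83h (0.69). Other probe sets of Cdk13 gave 0.27 ± 0.19 and 0.008 ± 0.15.

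The 12 named genes of smallest p with a negative interaction had values between -4.01 and -0.55. SI livers were wholly below S livers for Tmem132e, Nbn and Echdc1, and CI livers wholly above C livers for Kcns2 and Bpifa5. Over all probe sets the shares were 0.236% and 0.419%. The choice by interaction favours such separation, so these shares are no baseline for the 12 genes. Tmem132e read 7.62, 7.65, 7.89, 7.93 and 7.69 in SI livers, against 8.39, 8.77, 8.22, 8.53 and 8.15 in S livers. The CI livers read 8.47, 8.63, 8.67, 8.41 and 8.61, against 8.61, 8.15, 7.92, 8.59 and 7.90 in C livers. Its interaction was -0.98 ± 0.20 (adjusted p = 0.366 in limma), and that of its other probe set -0.37 ± 0.10. Nbn, a subunit of the complex that senses DNA breaks, had -0.83 ± 0.20, and Echdc1, which removes ethylmalonyl-CoA, had -0.94 ± 0.24.

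Among the other negative genes, Ppa1, the cytosolic pyrophosphatase, read 12.27, 12.21, 12.27, 12.05 and 11.78 in SI livers, against 12.31, 13.15, 12.86, 12.04 and 12.16 in S livers. In CI livers Ppa1 read 13.41, 13.24, 13.28, 13.27 and 12.12, against 12.30, 12.21, 12.07, 11.92 and 12.08 in C livers. The interaction of Ppa1 was -1.34 ± 0.31 with an adjusted p of 0.366 in limma, so it did not pass. With single arrays left out it was -1.57 to -1.18, with adjusted p-values of 0.0264 to 0.57. The value of -1.57 and the adjusted p of 0.0264 came without CI replicate 5, the one low CI liver. Ndufb3, a subunit of respiratory complex I, had -0.64 ± 0.16, and Endog, the mitochondrial endonuclease G, -0.71 ± 0.16. Pros1, the anticoagulant protein S made by hepatocytes, had -0.55 ± 0.12, and the chromatin reader Phf14 -1.09 ± 0.28. A second probe set of Phf14 gave -0.38 ± 0.36. Gabrb1, a GABA receptor subunit (-2.39 ± 0.58), and Cartpt, a neuropeptide precursor (-1.88 ± 0.48), are known mainly from neurons. Some group means lay below the filter level of 7.38: 7.26 in SI for Gabrb1, 7.15 in SI and 6.70 in C for Cartpt, and 6.80 in SI and 7.21 in C for Kcns2. These genes were tested because of the diets in which they read higher, and no detection call was used here that could tell a low level from none.

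To place pathways, 30 gene lists with 471 different tested genes were read by counts. In none of them did a member pass the adjusted threshold. Members named below beyond the 2 of smallest p in each pathway list were chosen after their values were seen. Counts below are therefore of members at an unadjusted p under 0.05, to be read against 5.69% of all probe sets positive and 4.43% negative at that level, and of members above 0, against 52.6% of all probe sets.

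**Figure D3:**
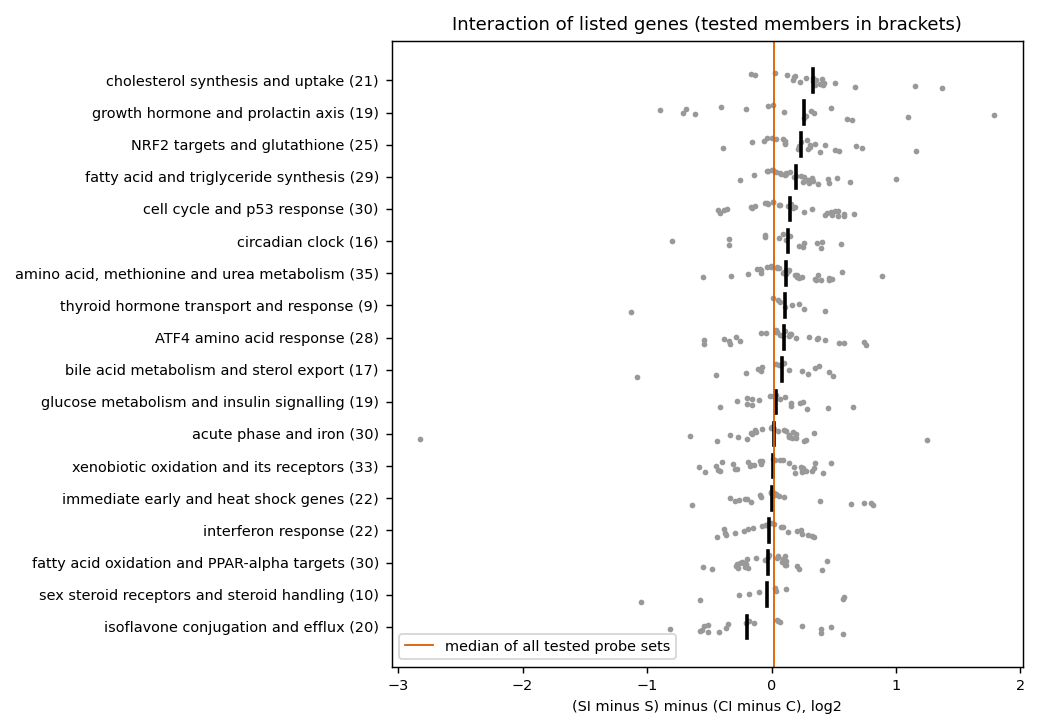
Interaction (horizontal axis, log2) of every tested member of the 18 pathway lists, 1 grey point per gene and 1 row per list, with the number of tested members in brackets. Black ticks are list medians and the orange line is the median of all probe sets; the medians run between -0.19 for isoflavone conjugation and efflux and 0.34 for cholesterol synthesis and uptake. The medians of 9 lists change sign under at least 1 other scaling of the arrays, among them amino acid, bile acid, glucose, xenobiotic and acute phase genes.

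Cholesterol synthesis had the highest list median. Of 21 tested genes 19 had a positive interaction, 5 at an unadjusted p under 0.05 and 0 negative at that level, with a median of 0.34. The median was 0.15 for SI minus S and -0.14 for CI minus C. Lss, lanosterol synthase, which closes the sterol ring, read 10.97, 10.81, 9.77, 10.34 and 10.15 in SI livers, against 9.35, 9.03, 9.76, 10.20 and 10.07 in S livers. In CI livers it read 10.53, 10.56, 10.80, 9.54 and 10.05, against 10.58, 10.89, 11.19, 11.12 and 10.93 in C livers. The groups overlapped in both pairs, although the means differed in opposite directions. Its interaction was 1.37 ± 0.36 (unadjusted p = 0.0011, adjusted p = 0.388 in limma), and its other probe set gave 1.15 ± 0.27.

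Insig1, the endoplasmic reticulum protein that retains the sterol sensor and is itself a target of the pathway, was chosen for display after its values were seen. It read 13.15, 13.55, 13.26, 13.96 and 13.32 in SI livers, against 12.52, 12.96, 12.09, 13.04 and 12.19 in S livers. In CI livers Insig1 read 14.33, 13.94, 14.66, 13.83 and 12.23, against 13.96, 14.28, 14.46, 13.38 and 14.25 in C livers. Every SI liver was above every S liver, and CI replicate 5 lay far below the other CI livers. The interaction of Insig1 was 1.16 ± 0.47. Tm7sf2, a sterol reductase, had 0.67 ± 0.26, Srebf2, the transcription factor that drives the pathway, 0.41 ± 0.20, and Mvk, mevalonate kinase, 0.35 ± 0.17. The enzymes Sqle (0.51), Fdps (0.42), Dhcr7 (0.40) and Mvd (0.39) had positive values that did not pass an unadjusted p under 0.05, and Idi1 (-0.16) and Insig2 (-0.14) were the only negative members.

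The promoters of Lss and Insig1 are printed because these genes had the largest values of the list, and in rats and other mammals the sterol response of such promoters uses the factor NF-Y, which binds the letters CCAAT. Both are RefSeq sequences of build GRCr8 on the minus strand, 5′ to 3′, at chr20:12118181-12118480 for Lss and chr4:8057720-8058019 for Insig1. Capitals mark CCAAT or its reverse complement.
Lss: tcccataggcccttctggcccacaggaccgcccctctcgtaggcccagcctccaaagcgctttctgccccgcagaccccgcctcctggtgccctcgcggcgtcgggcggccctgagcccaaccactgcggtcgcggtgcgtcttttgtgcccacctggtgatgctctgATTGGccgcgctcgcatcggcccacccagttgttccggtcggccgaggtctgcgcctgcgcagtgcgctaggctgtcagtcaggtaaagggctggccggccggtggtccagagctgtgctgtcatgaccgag
Insig1: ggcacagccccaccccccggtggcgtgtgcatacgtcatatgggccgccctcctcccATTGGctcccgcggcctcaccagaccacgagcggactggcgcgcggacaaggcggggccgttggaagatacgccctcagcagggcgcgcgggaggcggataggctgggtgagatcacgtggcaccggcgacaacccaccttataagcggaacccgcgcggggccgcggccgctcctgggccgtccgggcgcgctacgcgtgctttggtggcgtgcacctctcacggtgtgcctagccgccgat
CCAAT on either strand was found in 14 of the 17 list members with a promoter in the RefSeq table, and in 37.5% of all 33469 promoters there. The list count is per gene, with a match in any promoter of that gene, while the percentage is per promoter. A match is a description of the letters only, and the motif was chosen with the values in view.

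**Figure D4:**
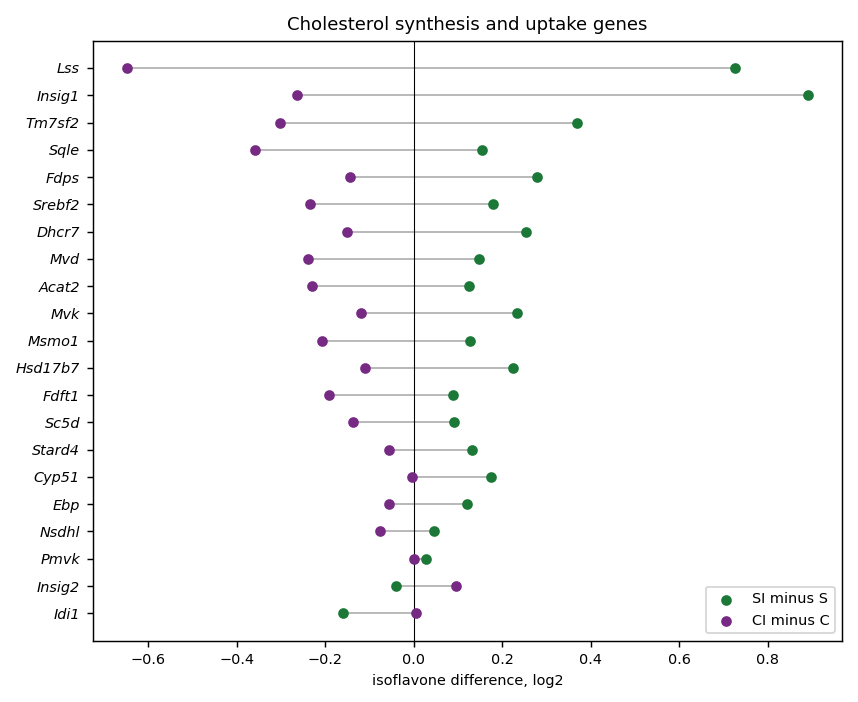
Isoflavone difference (horizontal axis, log2) of the 21 tested cholesterol synthesis and uptake genes, with SI minus S in green and CI minus C in purple, ordered by the interaction, which is the gap between the points. The green point lies right of the purple one in 19 genes; with equal median and spread per array this held in 16.

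The cholesterol result was sensitive to scaling and to single livers. With every array set to the same median and spread, 16 of 21 members had a positive value, 1 at an unadjusted p under 0.05, and the median was 0.18. Without SI replicate 5 the median was 0.22, and without CI replicate 5 it was 0.25. The count of 5 at that level was 9 without SI replicate 3, 2 without both C replicate 3 and CI replicate 3, and 3 on leaving out C replicate 3 or 5, CI replicate 5, S replicate 1 or 2, or SI replicate 1, 2 or 5. The list mean per liver was 11.81, 11.70, 11.39, 11.74 and 11.91 in SI, against 11.53, 11.49, 11.38, 11.58 and 11.56 in S. It was 12.06, 11.98, 11.79, 11.68 and 11.33 in CI, against 11.84, 11.83, 12.00, 12.01 and 11.97 in C. CI replicate 5 was the lowest of all 20 livers, and SI and S overlapped through a single SI liver.

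Genes of fatty acid and triglyceride synthesis had positive values in 25 of 29 cases, with a median of 0.20 and 2 members at an unadjusted p under 0.05. These were Slc25a1, the mitochondrial citrate carrier (0.37 ± 0.14), and Acss2, which makes cytosolic acetyl-CoA (0.47 ± 0.20). With equal median and spread per array 17 of 29 were positive and 0 reached that level; with single arrays left out 1 to 6 did. CI replicate 5 again had the lowest list mean of the CI livers, 11.79, against 12.21 to 12.47 in the other 4.

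Genes that set the level of these pathways spread widely within diets, so the interaction was bounded loosely. Fasn, fatty acid synthase, read 13.89, 14.08, 12.34, 11.43 and 11.86 in SI livers, against 13.03, 11.95, 10.91, 12.02 and 11.77 in S livers. In CI livers Fasn read 13.58, 13.59, 14.33, 13.87 and 11.81, against 14.01, 14.23, 13.51, 13.02 and 13.49 in C livers. The interaction was 1.00 ± 0.71, with a 95% interval of -0.49 to 2.49. Srebf1, its transcriptional activator, had 0.53 with an interval of -0.45 to 1.51. Cyp7a1, which starts the conversion of cholesterol to bile acids, had 0.35 with an interval of -1.16 to 1.85.

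For Pnpla3, a lipid droplet protein, the soy and casein groups did not overlap, yet the interaction was -0.03 with a 95% interval of -1.42 to 1.35. Pnpla3 read 8.97, 8.62, 7.27, 7.46 and 8.11 in SI livers, against 8.32, 8.45, 6.19, 8.55 and 7.07 in S livers. It read 13.05, 12.72, 13.18, 12.70 and 10.74 in CI livers, against 12.68, 12.13, 11.96, 11.68 and 11.93 in C livers. Mat2a, which makes S-adenosylmethionine, was likewise separated by protein, with means of 12.1 in SI and S against 9.65 in CI and 9.75 in C. Its interaction was 0.13 with an interval of -0.35 to 0.61.

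The other genes followed for their known link to soy or lipids had intervals that included 0. These were Abcg5, the sterol exporter subunit (0.10, interval -0.94 to 1.14), Cpt1a, the gate of fatty acid oxidation (-0.24, -1.07 to 0.60), and its regulator Ppara (0.05, -0.45 to 0.55). Malic enzyme Me1 had 0.01 (-0.55 to 0.56) and the desaturase Scd 0.01 (-0.60 to 0.61). The oxidase Fmo1 had -0.08 (-0.53 to 0.37), the protease inhibitor A2m -0.66 (-1.64 to 0.33) and the oxidase Cyp1a2 0.33 (-0.12 to 0.77). The oestrogen receptor Esr1, read near the filter level, had 0.57 (-0.06 to 1.21). None of the 14 tested genes of this set of 17 passed, and the intervals were 0.895 to 3.02 log2 units wide.

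The list of genes that conjugate isoflavones and export them had 2 positive and 4 negative members of 20 at an unadjusted p under 0.05, with a median of -0.19. The positive pair make the donor molecules. Papss2, which makes the sulphate donor, read 12.69, 12.68, 12.56, 12.30 and 12.53 in SI livers, against 11.97, 11.92, 12.25, 12.37 and 12.33 in S livers. In CI livers Papss2 read 12.36, 12.65, 12.44, 12.72 and 12.53, against 12.76, 12.59, 12.89, 13.04 and 12.38 in C livers. The interaction was 0.57 ± 0.17 (adjusted p = 0.406 in limma), and its other probe set gave 0.61 ± 0.18. Ugdh, which makes UDP-glucuronic acid, had 0.40 ± 0.14.

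The negative members were a glucuronosyltransferase, Ugt2b15 (-0.56 ± 0.25), a sulphotransferase, Sult1c3 (-0.57 ± 0.26), and the efflux pumps Abcg2 (-0.42 ± 0.17) and Abcb1a (-0.51 ± 0.21). Members of the Ugt2b and Sult families are close in sequence, so cross-hybridisation between them was not tested. Ugt2b15 read 13.32, 12.82, 13.75, 13.44 and 12.96 in SI livers, against 13.63, 13.70, 13.22, 13.35 and 13.29 in S livers. In CI livers Ugt2b15 read 13.51, 13.58, 13.73, 13.44 and 13.49, against 13.73, 13.19, 12.56, 13.28 and 13.11 in C livers. Groups overlapped in both pairs. The list median moved to -0.31 without C replicate 1, -0.11 without C replicate 2, -0.10 without CI replicate 4 and -0.08 without both C replicate 3 and CI replicate 3. It was -0.10 with median centring and -0.31 with equal median and spread, and the negative count at an unadjusted p under 0.05 was 0 with median centring, 1 without S replicate 2, 2 without CI replicate 2, CI replicate 3 or SI replicate 2, and 1 without both C replicate 3 and CI replicate 3. The other 14 members did not reach that level.

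Sex steroid genes had 2 negative and 0 positive of 10 at an unadjusted p under 0.05. Cyp17a1, which makes androgen precursors, read 10.17, 9.91, 9.45, 10.77 and 9.09 in SI livers, against 10.26, 9.55, 10.37, 10.43 and 9.59 in S livers. In CI livers it read 11.14, 11.26, 11.04, 10.88 and 10.71, against 10.08, 10.24, 10.39, 9.56 and 10.31 in C livers. CI was wholly above C, and SI overlapped S. The interaction was -1.05 ± 0.36 (adjusted p = 0.421 in limma), and CI minus C was 0.89 ± 0.25. Hsd17b2, which inactivates oestradiol and testosterone, had -0.57 ± 0.27.

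Hsd11b1, which regenerates active glucocorticoid, was among the 3 genes of smallest p in CI minus C. It read 15.14, 14.95, 14.98, 14.92 and 14.91 in SI livers, against 14.95, 15.02, 14.86, 14.78 and 15.02 in S livers. In CI livers Hsd11b1 read 14.69, 14.46, 14.69, 14.66 and 14.76, against 14.28, 13.77, 14.00, 14.09 and 14.43 in C livers. Every CI liver lay above every C liver, and both soy groups lay above CI. The choice by CI minus C favours separation of CI from C and also enters the interaction. Over all probe sets 0.419% had CI wholly above C, which is no baseline for a gene so chosen. CI minus C was 0.54 ± 0.10 and SI minus S 0.05 ± 0.10, and the interaction was -0.48 ± 0.14 with an adjusted p of 0.405 in limma.

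**Figure D5:**
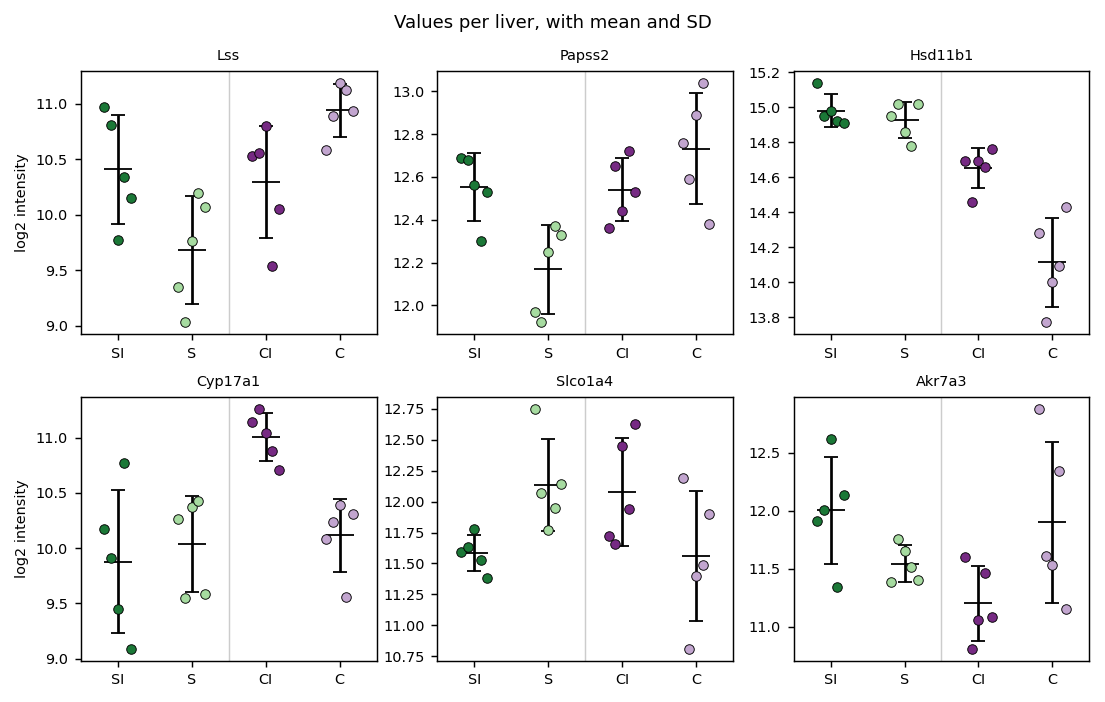
Log2 intensity per liver (vertical axis) of 6 genes of sterol synthesis, sulphate activation, steroid handling, transport and detoxification in SI, S, CI and C. Points are single livers, the long tick is the mean and the bar the SD (n = 5 per group). CI lies wholly above C for Hsd11b1 and Cyp17a1, and the groups overlap in both pairs for the other 4 genes.

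The bile acid list had 1 positive and 1 negative of 17 at an unadjusted p under 0.05. Slco1a4, an uptake transporter for bile acids and drugs, read 11.59, 11.63, 11.78, 11.53 and 11.38 in SI livers, against 12.75, 12.07, 11.77, 11.95 and 12.14 in S livers. In CI livers Slco1a4 read 11.72, 11.66, 12.45, 11.94 and 12.63, against 12.19, 10.81, 11.40, 11.49 and 11.90 in C livers. One S liver lay just inside the SI range. The interaction was -1.08 ± 0.32, and its other probe set gave -1.11 ± 0.35. Nr1h4, the bile acid receptor FXR, had 0.49 ± 0.19.

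Targets of NRF2, the regulator of antioxidant and glutathione genes, were positive in 21 of 25 cases, with 5 positive and 0 negative at an unadjusted p under 0.05 and a median of 0.24. Akr7a3, which reduces reactive aldehydes, read 11.91, 12.01, 12.62, 11.34 and 12.14 in SI livers, against 11.39, 11.76, 11.65, 11.52 and 11.40 in S livers. In CI livers Akr7a3 read 11.60, 10.81, 11.06, 11.46 and 11.08, against 12.88, 11.61, 11.53, 12.34 and 11.15 in C livers. The interaction was 1.16 ± 0.37. The others were the glutathione transferase Gstm1 (0.39 ± 0.12), thioredoxin reductase Txnrd1 (0.54 ± 0.26), haem oxygenase Hmox1 (0.51 ± 0.24) and glutathione reductase Gsr (0.29 ± 0.14). With equal median and spread per array the median was 0.15, with 2 positive and 1 negative at that level. Without S replicate 1 the median was 0.16 with 2 positive members at that level, and with other single arrays left out the positive count was 2 to 5.

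Genes of amino acid metabolism had 6 positive and 0 negative of 35 at an unadjusted p under 0.05. Of these 6, 5 also had a positive SI minus S at that level, which the choice by interaction favours. Hpd, of tyrosine breakdown, read 15.26, 15.24, 15.13, 14.97 and 15.12 in SI livers, against 14.72, 14.88, 15.02, 14.88 and 14.84 in S livers. Its CI livers read 14.90, 14.91, 15.00, 15.01 and 14.85, against 15.00, 15.18, 14.99, 15.00 and 14.94 in C livers. The interaction of Hpd was 0.36 ± 0.10, and SI minus S was 0.27 ± 0.07. Ass1, of the urea cycle, had 0.46 ± 0.18, the glutaminase Gls2 0.40 ± 0.16, Cbs, of cysteine synthesis, 0.49 ± 0.22, the proline dehydrogenase Prodh 0.46 ± 0.21 and glutamine synthetase Glul 0.35 ± 0.16. The list median was 0.12, but with equal median and spread it was -0.01, with 0 positive and 2 negative members at that level. The positive count was 3 without any one of C replicate 2, C replicate 4 and CI replicate 2. The brightest 20% of all probe sets had a median interaction of 0.06, which was -0.07 with equal median and spread.

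Several mitotic genes read lower in CI than in C livers. In CI minus C, 10 of the 30 cell cycle and p53 genes were lower and 0 higher at an unadjusted p under 0.05. Of all probe sets 5.93% were lower and 3.57% higher there. In SI minus S 0 of 30 reached that level, against 3.89% of all probe sets. The test of the difference itself, the interaction, gave 4 positive members: Kif20a, a mitotic kinesin (0.58 ± 0.23), Prc1, of the central spindle (0.54 ± 0.20), Ccnb2, a mitotic cyclin (0.49 ± 0.22), and Plk1, a mitotic kinase (0.43 ± 0.19). Kif20a read 8.71, 8.93, 8.68, 8.71 and 8.32 in SI livers, against 8.58, 9.00, 8.35, 8.78 and 8.73 in S livers. In CI livers it read 9.03, 8.30, 8.59, 9.08 and 8.47, against 9.29, 9.53, 9.16, 9.51 and 8.96 in C livers.

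The cell cycle result leaned on single livers. Without CI replicate 5 the list median of 0.15 was 0.01 and the CI minus C count was 4. The median was 0.06 without C replicate 4, 0.07 without S replicate 3, and 0.09 without S replicate 1 or SI replicate 2. The 4 positive members in the interaction were 2 without any one of C replicates 2 and 4, CI replicates 3 and 5, S replicates 1 and 3, or SI replicate 2, and 7 without C replicate 5 or CI replicate 1. The CI minus C count was 6 without any one of C replicate 2, C replicate 4 and CI replicate 3, and 5 when all 30 arrays shared the estimate of the spread. It was 9 to 14 under the other scalings.

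Macrophage markers also read lower in CI than in C livers. In CI minus C, 6 of 11 were lower at an unadjusted p under 0.05, where 5.93% of all probe sets were lower. In SI minus S 0 of 11 were lower at that level, where 2.14% of all probe sets were. The interaction was positive in 10 of 11, with a median of 0.27, and 1 reached that level. Summed over the list, the intensity was 28298 to 44054 in SI livers, 30070 to 42820 in S livers, 25043 to 35688 in CI livers and 35588 to 39624 in C livers. Cd68, a lysosomal protein of macrophages, read 10.74, 10.71, 11.07, 10.45 and 11.01 in SI livers, against 11.07, 10.85, 11.12, 10.67 and 10.60 in S livers. In CI livers Cd68 read 10.55, 10.74, 10.37, 10.22 and 10.72, against 10.84, 11.14, 11.14, 11.02 and 10.67 in C livers. The interaction of Cd68 was 0.38 ± 0.19, and that of C1qb, a complement subunit made by macrophages, 0.33 ± 0.15. Fewer macrophages and less RNA per macrophage cannot be told apart in bulk tissue. The CI minus C count was 1 without CI replicate 4, 2 without CI replicate 1 or C replicate 3, 3 without C replicate 2 or C replicate 4, 4 without C replicate 1 and 8 without CI replicate 5. It was 3 with quantile normalization and with equal median and spread, and 2 without both C replicate 3 and CI replicate 3. The part of these cells in the other results was not tested.

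Hepatocyte markers were positive in 7 of 9 cases with a median of 0.14, which was -0.02 with quantile normalization and -0.20 with equal median and spread. Pericentral markers had a median of 0.20 with 1 positive at an unadjusted p under 0.05, and periportal markers 0.11 with 2 positive and 2 negative. Stellate cell markers had 2 positive (Acta2, 0.46 ± 0.15, and Pdgfrb, 0.38 ± 0.14) of 13. The 4 red cell genes were all positive with a median of 0.42 and 0 at that level. Endothelial (9), lymphocyte (5) and adipocyte (3) markers had 0 at that level. Bile duct markers had 1 negative of 3 (Epcam), exocrine pancreas markers 1 negative of 2 (Cela1) and intestine and kidney markers 0 of 3.

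The growth hormone and prolactin list had 2 positive of 19, Hnf4a, the hepatocyte nuclear factor (0.65 ± 0.21), and Igfals, which binds circulating IGF (0.60 ± 0.21). Its median of 0.26 was 0.09 without S replicate 3, 0.15 without SI replicate 1 or CI replicate 5, and 0.17 without S replicate 1. All 3 probe sets of Hnf4a were positive. The ATF4 list had 1 positive, Sesn2, a stress-induced inhibitor of growth signalling (0.76 ± 0.25), and 2 negative, Ddit3 (-0.34 ± 0.13) and Nupr1 (-0.54 ± 0.23), of 28. For Sesn2 the other probe set gave 0.40 ± 0.25. Glucose metabolism had 2 positive of 19, Gckr, the regulator of glucokinase (0.29 ± 0.10), and Tkfc, of fructose metabolism (0.45 ± 0.20). A second probe set of Tkfc gave -0.008 ± 0.24. The circadian list had 1 of 16, Npas2 (0.39 ± 0.17), with Cry2 next (0.25 ± 0.14).

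Acute phase genes had 2 positive, Serpina1 (0.26 ± 0.09) and C3 (0.28 ± 0.13), and 1 negative, Apcs (-0.44 ± 0.17), of 30. With equal median and spread the value of Serpina1 was -0.09. Fatty acid oxidation had 1 positive, Ucp2, a mitochondrial carrier (0.41 ± 0.16), and 1 negative, Vnn1, a pantetheinase induced by PPAR-alpha (-0.48 ± 0.21), of 30. Interferon genes had 1 of 22, Stat2, the interferon signal transducer (0.34 ± 0.11), while Mx2, an antiviral GTPase, had -0.44 ± 0.21. For Stat2 the other probe set gave 0.10 ± 0.11. Xenobiotic oxidation had 1 of 33, the epoxide hydrolase Ephx1 (0.42 ± 0.19), with Cyp2b3 next (0.19 ± 0.11). Immediate early and heat shock genes had 1 of 22, Zfp36, a destabiliser of inflammatory mRNAs (0.81 ± 0.36), with Hspa1a next (-0.64 ± 0.34). Thyroid hormone genes were positive in 8 of 9 cases with 0 at that level, with Serpina7, the thyroxine-binding globulin, at -1.13 ± 0.70 and the deiodinase Dio1 at 0.43 ± 0.35.

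Outside the lists, the single comparisons named a few more genes. Dzip1l, a ciliary protein, read 6.95, 6.50, 6.45, 6.75 and 5.47 in SI livers, against 7.53, 8.78, 8.94, 8.65 and 8.57 in S livers. In CI livers Dzip1l read 6.78, 8.54, 7.92, 8.39 and 7.21, against 6.29, 8.81, 6.62, 6.82 and 8.62 in C livers. SI was wholly below S, while CI and C each spread widely and overlapped. SI minus S was -2.07 ± 0.46 and the interaction -2.41 ± 0.66. Frmpd2, a scaffold protein of cell junctions, had positive differences on both proteins, with SI minus S at 0.45 ± 0.21 and CI minus C at 1.14 ± 0.21, and CI wholly above C. Its interaction was -0.70 ± 0.29 with an adjusted p of 0.448 in limma. Dzip1l was chosen by SI minus S and Frmpd2 by CI minus C, which favours the separation seen in each. Over all probe sets 0.236% had SI wholly below S and 0.419% had CI wholly above C, shares that are no baseline for these genes. Group means below the filter level of 7.38 were 6.42 in SI for Dzip1l, and 7.18 in S and 7.07 in C for Frmpd2.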

How the data were processed

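For each array the authors deposited intensity values on a linear scale, 1 for every probe set, normalized between arrays with the SuperNORM service per the labels; the reference level of that scale and the version of the chip definition are not given in the sources used here. Values were floored at 16 and taken to log2. Of 31099 probe sets, 57 controls were left out, and the 18625 above the 40th percentile of mean log2 intensity were tested. A linear model over the 20 arrays of SI, S, CI and C, with no covariate, was fitted with limma 3.58.1 (trended eBayes, R 4.3.3), and p-values were adjusted by Benjamini-Hochberg over all tested probe sets. Figures used Python 3.11.15 and matplotlib 3.10.9. On simulated data with known interactions the fit recovered 32.8% of 1.5-fold, 71.6% of 2-fold and 98.5% of 4-fold changes. It made 140 calls over 18625 probe sets, 5 of them false. In that simulation 200 probe sets changed at once, which loosens the Benjamini-Hochberg cut-off compared with data that hold 1 call. The recovered shares therefore do not carry over to these data, where Rpl39 at 4.2-fold did not pass.

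Symbols came from the platform annotation: 20826 probe sets had 1 symbol, 436 several and 9780 none. A gene was represented by its brightest tested probe set. Genes were named by rank: the 12 of smallest p in each direction of the interaction, the 2 of smallest p in each pathway list, the 3 of smallest p in each single comparison, and a set of 17 genes linked to soy or lipids. The contrast, the lists and the genes were chosen with earlier results of these data known. Alternatives covered scaling, floor, filter, variance trend, array weights, all 30 arrays in the fit, replicate block, probe set choice and arrays left out.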

Additional observations from a re-analysis of the deposited data

Results flagged for a closer look

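One probe set, 1396371_at, had isoflavone differences on soy protein and on casein that differed by the interaction test, at -2.79. Single livers that stood apart from the other 4 of their group were looked for in 312 groups of 5 values, and 15 were found, 4.81%, where chance gives about 1 in 20.

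In SI, Cdk13 was 9.13 in replicate 5, Hspa1a 8.89 in replicate 4 and Igfals 12.98 in replicate 4. In S, Ucp2 was 10.01 in replicate 3, and replicate 1 held Npas2 at 9.49 and Dzip1l at 7.53. In CI, replicate 5 held Igfals at 12.66, Ppa1 at 12.12 and Pnpla3 at 10.74, and Kcns2 was 8.40 in replicate 2. In C, replicate 1 held Ndufb3 at 13.01, Dio1 at 8.87 and Mat2a at 10.34, Hpd was 15.18 in replicate 2 and Bpifa5 7.37 in replicate 5.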

How the results depend on the processing

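The interaction count of 1 called probe set was 2 without the filter on dim probe sets, 0 with the 60th percentile filter, 3 with all 30 arrays in the fit, 3 with array weights, 3 with the replicate block and 0 without C replicate 3 and CI replicate 3 together. With single arrays left out it was 0 to 2, that of SI minus S 0 to 1 and that of CI minus C 0 to 2. The causes were not tested, apart from the filter, which removes the probe set. Whether the replicate numbers pair the livers is not given by the labels, and not every same-numbered pair deviated together. Of 20 same-numbered pairs 7 had deviations correlated over 0.1, with r between -0.143 and 0.315. Pairs of SI with C and of S with CI were not among these 20. Among all arrays of the other groups, 10 of 20 arrays correlated best with an array of their own number. The count due by chance was not worked out, so this is a hint from the data and not from the design.

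Some named genes changed sign. With equal median and spread, Serpina1 was -0.092, Cyp2b3 -0.11, Me1 -0.14 and Scd -0.28. Median centring gave Pnpla3 0.060 and Fmo1 0.013, quantile normalization Scd -0.029, array weights Me1 -0.035, and the mean over probe sets Pnpla3 0.048. Without C replicate 3 and CI replicate 3 together Abcg5 was -0.037 and Pnpla3 0.17. With single arrays left out the ranges were -0.047 to 0.66 for Cyp7a1, -0.19 to 0.37 for Abcg5, -0.47 to 0.18 for Pnpla3, -0.14 to 0.13 for Me1, -0.15 to 0.17 for Scd, -0.050 to 0.19 for Ppara, -0.20 to 0.040 for Fmo1 and -0.018 to 0.22 for Mat2a. Of the other values of named genes, 2527 kept direction and side of the threshold, 9 lost a call and 10 gained one. With 5 livers per diet the median SE of 0.179 limits what could be seen.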
